A study of Homo sapiens with 2 samples.

Results

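The 9 genes described here write, copy, read or remove methyl groups on cytosine in DNA, and they were taken by symbol from a table of 40205 genes. They are DNMT1, DNMT3A, DNMT3B, UHRF1, UHRF2, TET1, TET2, TET3 and MBD2, and all 9 symbols were in the table. Their RNA was measured in RKO, an established line of human colorectal cancer cells, on day 2 after transfection. The control library (control siRNA in the plots) came from cells given a control siRNA, and the knockdown library (hnRNPK siRNA in the plots) from cells given siRNA to hnRNPK, a protein that binds RNA with a preference for stretches of C. With 1 library per group, differences have no replicate check and no test between the groups could be made. The second library's genotype label is worded as a knockout, whereas its title and protocol describe siRNA.

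Methyl groups sit mainly on cytosines that are followed by guanine (CpG), and dense methylation of a promoter goes with a silent gene. DNMT3A and DNMT3B set new marks, while DNMT1 copies existing marks onto the new strand after replication, guided by UHRF1, which binds the CpG sites that carry a methyl group on the old strand alone. The TET enzymes oxidise methylcytosine, after which the base can be lost through replication or cut out by the glycosylase TDG and replaced. MBD2 binds methylated CpG and brings in the NuRD complex, which deacetylates histones and moves nucleosomes. RKO is known for dense promoter methylation at many genes.

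Levels are FPKM, fragments scaled by transcript length and library size, so they can be compared between genes. The library totals recovered from the values were 25729856 reads (control) and 28550823 reads (knockdown), and 11454 genes had a mean of at least 1 FPKM and are called tested. HNRNPK, the siRNA target, was at 338.0 FPKM in the control library and 61.5 FPKM in the knockdown library, or 18.2% of the control level. Of 9 intestinal epithelial markers 4 were tested, with KRT18 the highest at 62.6 and 74.8 FPKM, and CDH1, KRT20, VIL1 and LGALS4 were listed at 0 in both libraries. None of 12 markers of blood, stromal and endothelial cells exceeded 0.0355 FPKM in either library.

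The promoter sequences of 3 of these genes are shown because these are the genes with the largest differences between the libraries, DNMT1 and UHRF1 on the lower side and MBD2 on the higher side. The windows run from 120 bases before to 30 bases after an annotated start, 5′ to 3′ on the gene's own strand, from RefSeq on GRCh38.p14, while the authors' build was hg19. They are chr19:10194924-10195073 on the minus strand for DNMT1, chr19:4909381-4909530 on the plus strand for UHRF1 and chr18:54224640-54224789 on the minus strand for MBD2. For UHRF1 the window belongs to the first of 3 starts in the table. Capitals mark a match, on either strand, to the E2F consensus, searched as TTTCCCGC, TTTCGCGC, TTTGCCGC and TTTGGCGC. E2F factors drive genes of S phase, the part of the cell cycle in which DNA is copied.
DNMT1: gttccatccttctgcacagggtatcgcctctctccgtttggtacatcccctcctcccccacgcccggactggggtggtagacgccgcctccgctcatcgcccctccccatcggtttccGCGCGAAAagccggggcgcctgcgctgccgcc
UHRF1: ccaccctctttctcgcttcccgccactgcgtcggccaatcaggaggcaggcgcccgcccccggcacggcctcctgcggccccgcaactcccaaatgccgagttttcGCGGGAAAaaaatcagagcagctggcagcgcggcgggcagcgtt
MBD2: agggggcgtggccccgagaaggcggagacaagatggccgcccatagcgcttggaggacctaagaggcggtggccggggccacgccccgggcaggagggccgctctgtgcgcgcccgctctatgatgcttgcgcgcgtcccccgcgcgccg

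The match began 2 bases before the start in DNMT1 and 14 bases before it in UHRF1, and the MBD2 window held none. Over the full windows of 300 bases, 3 of the 20 promoters listed for the 9 genes had a match, 1 of DNMT1 and 2 of UHRF1, against 3.31% of 35116 promoters of all genes. Among the S-phase genes listed further on, 9 of 19 promoters had a match, from the 13 of 16 genes found in the promoter table. CpG sites were dense in all 3 genes, with 30 in the 300 bases of DNMT1, 36 in those of UHRF1 and 32 in those of MBD2, against a median of 14 over all promoters. The DNMT3B promoter in the table had 3. The motif itself holds a CpG, and the 20 promoters had a median of 27 CpG sites, so all promoters are an unlike background. S-phase genes are of the kind that E2F factors drive, so their share is no neutral comparison either. A match to the motif describes these letters and not binding in RKO cells.

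In the control library, the maintenance genes stood far above the other writers and the erasers. DNMT1 was at 84.4 FPKM (82.2 to 86.5), above 93.3% of tested genes, and UHRF1 at 31.3 FPKM (30.2 to 32.4). MBD2 was at 16.6 FPKM (15.9 to 17.3) and UHRF2, the paralog of UHRF1, at 9.02 FPKM (8.43 to 9.64). The 4 remaining genes above 0 lay close together and low, with DNMT3B at 2.98 FPKM (2.54 to 3.46), TET3 at 1.86 (1.71 to 2.02), DNMT3A at 1.86 (1.69 to 2.05) and TET2 at 1.79 (1.63 to 1.96). The ranges are exact Poisson 95% intervals, which cover counting error only. The intervals of TET3, DNMT3A and TET2 overlapped, so their order could not be told at this depth. The pseudogenes UHRF2P1, DNMT3AP1 and TET1P1 were listed at 0 in both libraries. DNMT1 made up 94.6% of the summed FPKM of the 3 methyltransferases.

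In the knockdown library, MBD2 stood above UHRF1, the reverse of the control library. MBD2 was at 32.1 FPKM (31.2 to 33.1) and UHRF1 at 21.1 FPKM (20.2 to 21.9), while DNMT1 was again the highest at 54.1 FPKM (52.5 to 55.8). UHRF2 was at 8.82 FPKM (8.27 to 9.41), DNMT3B at 2.50 (2.13 to 2.93), TET3 at 2.04 (1.89 to 2.19), DNMT3A at 1.86 (1.70 to 2.04) and TET2 at 1.72 (1.57 to 1.88). The intervals of DNMT3B and TET3, of TET3 and DNMT3A, and of DNMT3A and TET2 overlapped, whereas those of TET3 and TET2 did not. The DNMT3B interval rests on the smallest reads that fit. It would be narrower with more reads, so its overlap with TET3 depends on that choice.

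**Figure D1:**
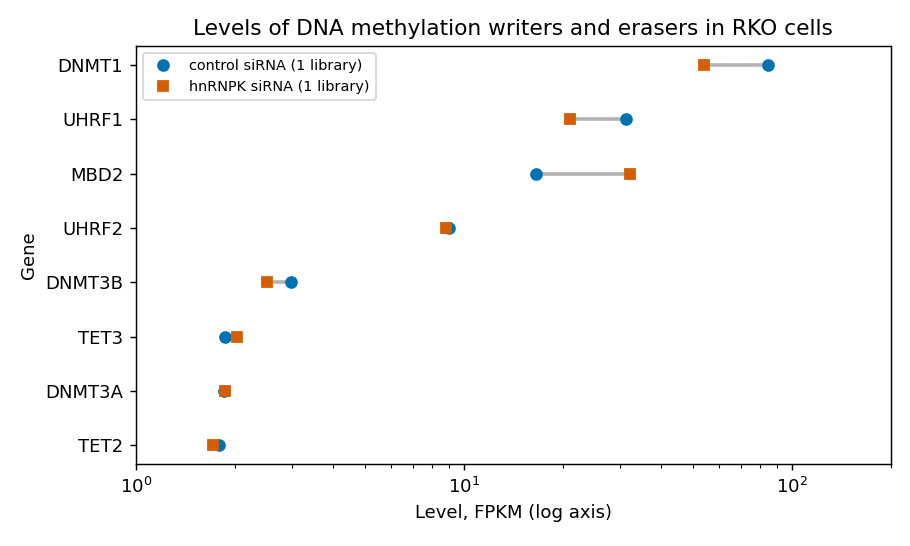
Level of each gene in FPKM on a log axis, as a circle for the control siRNA library and a square for the hnRNPK siRNA library, with TET1 left out because it was listed at 0. DNMT1 and UHRF1 sit lower and MBD2 higher in the knockdown library, and the points of the other genes nearly coincide.

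Between the libraries, the 3 best-expressed genes of the control library differed beyond counting error, and the intervals of the other 5 tested members included no change at the deposited scaling. For DNMT3B this holds for the smallest reads that fit, and with doubled reads, which its recovered length allows, the interval leaves out 1. The share of all tested genes with an interval that leaves out 1 was not counted. Such intervals narrow with reads, so small differences of well-read genes also pass, as for USP7 at a ratio of 1.12 (1.08 to 1.16). The split between the members thus reflects depth as well as size of difference. On the scale of FPKM + 1, used for counts of genes, none of the 8 tested members was at least 2-fold lower and none was at least 2-fold higher in the knockdown library, where 3.55% of all tested genes were lower and 0.777% higher. At 1.5-fold, DNMT1 was lower and MBD2 higher, against 14.7% and 3.67% of all tested genes. Of the 8 members, 3 lay below the median of all tested genes. The median log2 ratio was −0.03 over the members and −0.15 over all tested genes. The ratios that follow are of FPKM alone, with exact 95% intervals from the recovered reads that leave out variation between cultures and libraries.

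DNMT1 was at 64.1% of its control level in the knockdown library, a ratio of 0.641 (0.616 to 0.668). UHRF1, its guide to replicated DNA, was at a ratio of 0.672 (0.638 to 0.709). Ranked by FPKM + 1, 12.6% of all tested genes had a ratio lower than that of DNMT1 and 16.3% lower than that of UHRF1. Both thus lay on the lower side of the distribution but not at its edge. On the log2 scale of FPKM + 1 the differences were −0.63 and −0.55, or −0.48 and −0.40 relative to the median of all genes, and both were below 0 under each scaling and pseudocount tried.

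The paralog UHRF2, which also binds methylated CpG but does not replace UHRF1 in maintenance, was nearly level, at a ratio of 0.978 (0.891 to 1.07). Its sign changed with the scaling, and with TMM factors the ratio was 1.11 (1.01 to 1.22). UHRF1 thus outnumbered UHRF2 3.47-fold in the control library and 2.39-fold in the knockdown library, a change in the balance of 0.687 (0.617 to 0.765) that does not depend on how the libraries were scaled. DNMT1 and UHRF1 kept nearly the same balance, at 2.69 and 2.57 DNMT1 per UHRF1 by FPKM, a change of 0.954 with a counting interval of 0.893 to 1.02.

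The de novo methyltransferases were low in both libraries. DNMT3A was at a ratio of 1.0006 (0.876 to 1.14), with a sign that changed with the scaling. DNMT3B was at 0.841 (0.672 to 1.054), from at least 166 reads in the control library and 155 in the knockdown library. Its recovered length was 2168 bases against 4336 in its longest annotated transcript, and with doubled reads, 332 and 310, the interval would be 0.718 to 0.985, which excludes 1. The balance of DNMT3A to DNMT3B was 0.626 in the control library and 0.744 in the knockdown library, a change of 1.19 (0.914 to 1.55, or 0.966 to 1.46 with doubled DNMT3B reads). DNMT3L, a catalytically inactive partner of both that is typical of germ cells, was listed at 0 in both libraries. The summed FPKM of the 3 methyltransferases was 89.2 in the control library and 58.5 in the knockdown library, a difference that lay almost wholly in DNMT1, which made up 92.5% of the sum in the latter.

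Of the erasers, TET1 was listed at 0 in both libraries, which allows up to 3 reads in each, while all 20 of a set of genes used by most cells were above 0. TET2 was at a ratio of 0.959 (0.842 to 1.09) and TET3 at 1.09 (0.976 to 1.22), so neither interval excluded 1 at the deposited scaling. After centring, that of TET3 did, at 1.21 (1.08 to 1.35), and TET2 also lay on the higher side after centring or with TMM factors. TET2 and TET3 shared the family nearly evenly, with TET3 at 51.0% of the summed TET level in the control library and 54.3% in the knockdown library. The change in the balance of TET3 to TET2 was 1.14 (0.957 to 1.35). The summed TET level was 3.65 FPKM in the control library and 3.75 FPKM in the knockdown library.

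MBD2, the methyl-CpG reader, was the member that differed most, at 16.6 FPKM in the control library and 32.1 FPKM in the knockdown library. The ratio was 1.94 (1.84 to 2.04), from at least 2215 and 4760 reads. With FPKM + 1 the log2 ratio was 0.91, short of 2-fold, and 0.995% of tested genes were higher on that scale. After centring on the median of all genes it was 1.06, past 2-fold, as were 1.24% of all tested genes on the higher side. With TMM factors it was 1.09.

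**Figure D2:**
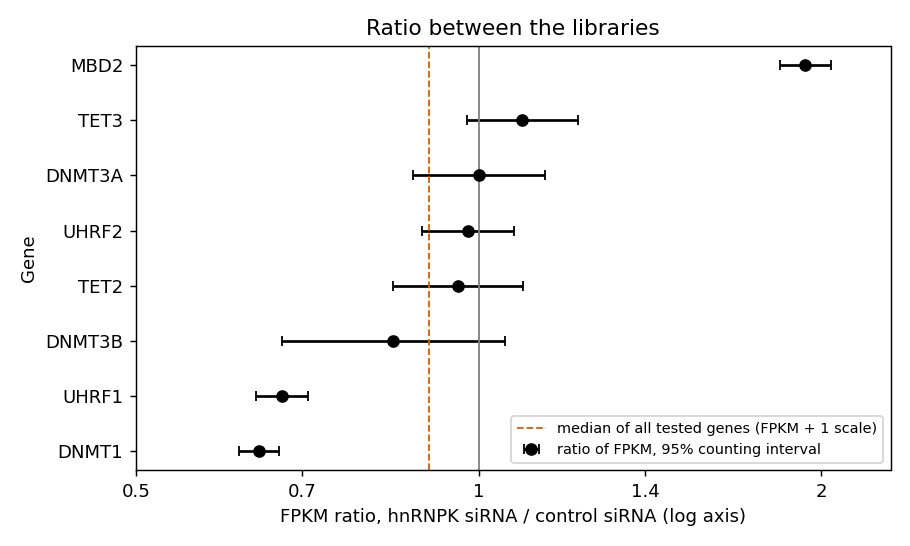
Ratio of FPKM, knockdown library over control library, for the 8 genes above 0, on a log axis with exact 95% counting intervals. The solid line marks no change and the dashed line the median of all tested genes on the FPKM + 1 scale. MBD2 at 1.94 and DNMT1 and UHRF1 at 0.641 and 0.672 have intervals clear of both lines, and the other 5 intervals, drawn from the smallest reads that fit, include 1.

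**Figure D3:**
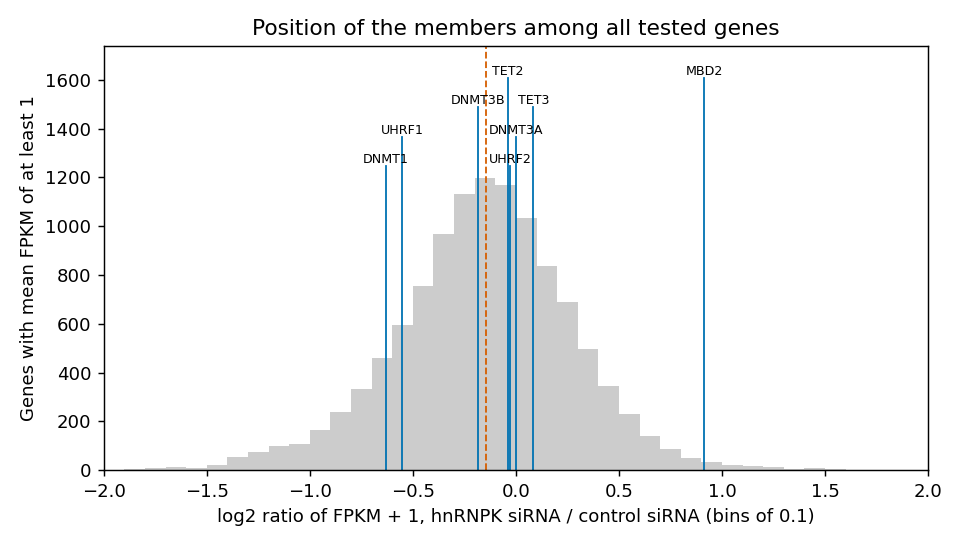
Histogram of the log2 ratio of FPKM + 1 over 11454 tested genes in bins of 0.1, with a labelled line at each of the 8 tested members and a dashed line at the median of −0.15. Of tested genes, 0.995% lie above MBD2 and 12.6% below DNMT1; ratios beyond 2 on either side are not drawn.

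MBD3, the close relative of MBD2 that takes its place in a separate form of NuRD, went the other way. It was at 9.98 FPKM in the control library and 5.62 FPKM in the knockdown library, a ratio of 0.563 (0.496 to 0.639). MBD2 exceeded MBD3 1.66-fold in the control library and 5.72-fold in the knockdown library, so the balance differed 3.44-fold (3.001 to 3.95) between the libraries. This pair and that of TET3 and TET2 were chosen after the values were seen. The 13 NuRD subunits on the list, MBD3 included, had a median log2 ratio of −0.20, near the −0.15 of all genes, none past 2-fold and 7 on the lower side of that median. CHD4, the main remodelling ATPase of the complex, measured 78.4 and 68.4 FPKM, giving a ratio of 0.872 (0.851 to 0.893).

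**Figure D4:**
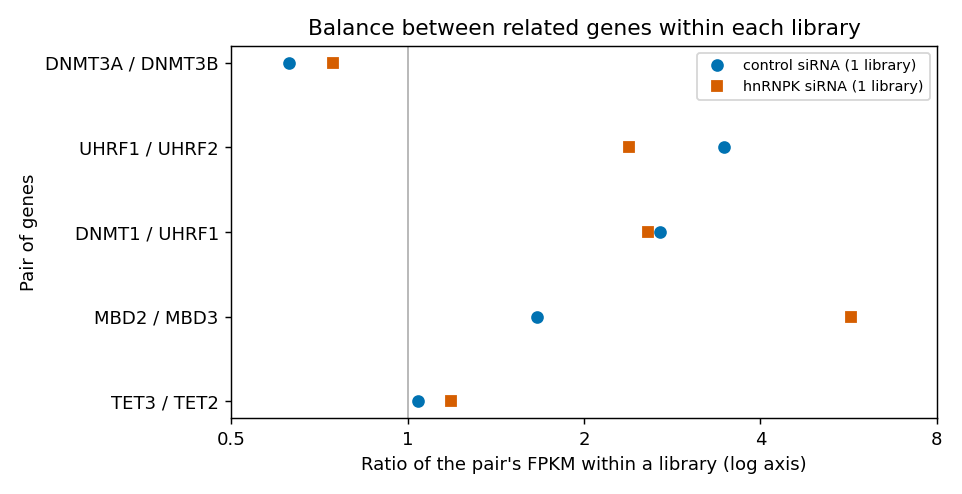
FPKM of the first gene of each pair divided by that of the second, within each library, on a log axis, as circles for control siRNA and squares for hnRNPK siRNA. The MBD2 to MBD3 ratio goes from 1.66 to 5.72 and that of UHRF1 to UHRF2 from 3.47 to 2.39, while DNMT1 to UHRF1 stays between 2.57 and 2.69.

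None of the 7 other genes listed from the methyl-CpG binding protein families, MBD3 included, was past 2-fold. Of these, 4 had a ratio under the median of all genes. MBD4, a glycosylase that removes the thymine left when methylcytosine deaminates, was at 20.7 FPKM in the control library and 16.9 FPKM in the knockdown library, a ratio of 0.817 (0.757 to 0.882). MBD2 thus had a higher ratio than all 7 in these libraries.

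Among 18 partners and recruiters of the methyltransferases, 16 were tested, none was past 2-fold, and 8 had a ratio under that of the median gene (median log2 ratio −0.21). HELLS, the remodelling ATPase that opens nucleosomes to DNA methylation, was at 25.03 FPKM in the control library and 13.2 FPKM in the knockdown library, a ratio of 0.526 (0.493 to 0.560). Its activating partner CDCA7, named after its value was seen, was at a ratio of 0.611 (0.572 to 0.652). USP7, a deubiquitinase that binds DNMT1 and UHRF1, measured 74.5 and 83.5 FPKM, giving a ratio of 1.12 (1.08 to 1.16). PCNA, the replication clamp on which DNMT1 rides, measured 202.9 and 244.2 FPKM, giving a ratio of 1.20 (1.17 to 1.24).

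DNMT1 and UHRF1 are genes of S phase, and 16 other S-phase genes, PCNA among them, had a median log2 ratio of −0.41. Of these, 10 had a ratio under that of the median gene. The 1 past 2-fold was CDC45, of the replicative helicase, at 46.6 and 21.3 FPKM (2.19-fold, 2.04 to 2.34). The log2 ratios ran from −1.09 to 0.27, a range that holds the −0.63 of DNMT1 and the −0.55 of UHRF1. Fewer cells in S phase and less RNA per cell cannot be told apart in bulk RNA, and the part of either in the values of DNMT1 and UHRF1 was not tested.

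Of 20 genes that work with the erasers, 15 were tested and none was past 2-fold (median log2 ratio 0.04, with 6 under that of all genes). TDG, the glycosylase that cuts out the oxidised bases made by TET enzymes, was at 8.70 FPKM in the control library and 17.1 FPKM in the knockdown library, a ratio of 1.96 (1.80 to 2.15), close to that of MBD2. XRCC1, the scaffold of the repair that follows, was at a ratio of 0.533 (0.449 to 0.632). Other tested repair genes of the list lay on either side of 1. APEX1 was at a ratio of 1.17 (1.13 to 1.20), POLB at 1.20 (1.10 to 1.31) and LIG3 at 1.03 (0.924 to 1.14). UNG was at 1.04 (0.969 to 1.11), NEIL2 at 0.920 (0.814 to 1.04) and SMUG1 at 0.824 (0.670 to 1.01). OGT, the sugar transferase that binds TET2 and TET3, measured 23.4 and 25.8 FPKM, giving a ratio of 1.10 (1.054 to 1.15). TET enzymes need 2-oxoglutarate, and IDH2, which makes that cofactor in mitochondria, was at a ratio of 0.536 (0.456 to 0.628). Its levels were 12.7 and 6.78 FPKM. IDH1, of the same list, was higher in both libraries, at 51.7 and 44.4 FPKM, a ratio of 0.860 (0.819 to 0.903). XRCC1, APEX1, POLB, LIG3, UNG, NEIL2, SMUG1, IDH1 and IDH2 were named after their values were seen.

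Genes of the methyl donor cycle lay somewhat above the other genes, with 6 of the 8 tested above the median and a median log2 ratio of 0.18. MAT2A, which makes S-adenosylmethionine, was at 45.5 FPKM in the control library and 54.1 FPKM in the knockdown library, a ratio of 1.19 (1.14 to 1.24). AHCY, which clears the product left after methyl transfer, measured 74.8 and 89.4 FPKM, giving a ratio of 1.19 (1.15 to 1.24). MTR, methionine synthase, named after its value was seen, was at 0.526 (0.493 to 0.562). None of the 8 was past 2-fold.

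**Figure D5:**
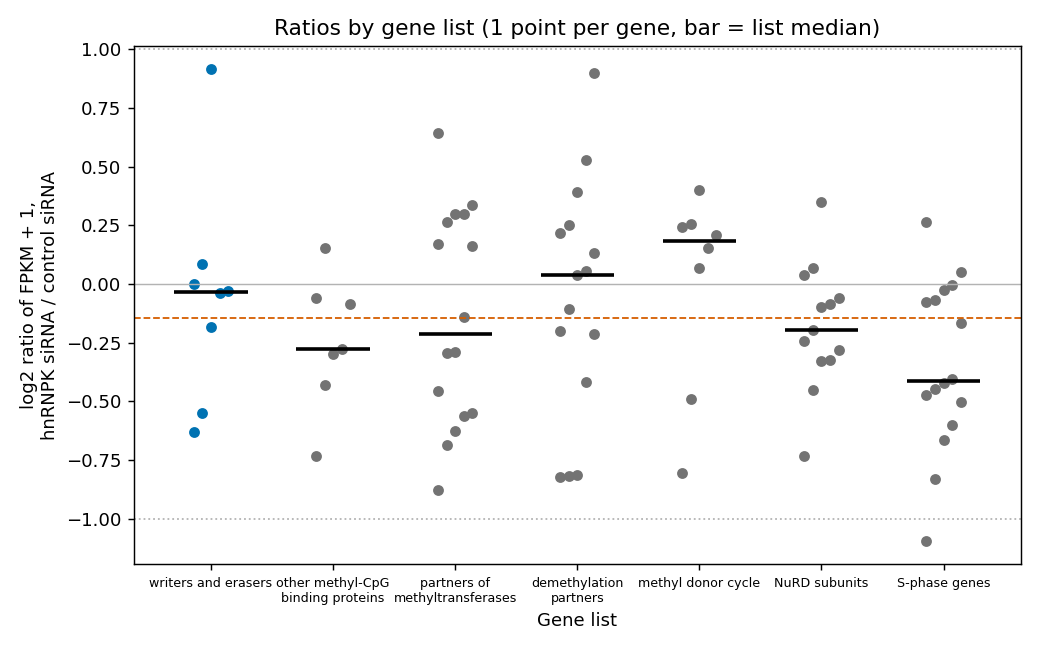
Log2 ratio of FPKM + 1 for each tested gene (points) by gene list, with the list median as a bar, the median of all tested genes as a dashed line and 2-fold as dotted lines. The writers and erasers span −0.63 to 0.91 around a median of −0.03, and the S-phase genes have the lowest median of the lists drawn, −0.41.

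Of 25 germline genes known to be silenced by promoter methylation in other cells, 21 were listed at 0 in both libraries, and none exceeded 0.0711 FPKM. Of 25 genes often silenced by methylation in colorectal cancer, 16 were listed at 0 in both, and CDKN2A rested on at least 2 reads in each library. Over the whole table, 21136 of 40205 genes were at 0 in both libraries, so a value of 0 is common. The 3 tested genes of that list were MGMT, RASSF1 and NDRG4, at 12.8, 2.93 and 1.04 FPKM in the control library and 8.42, 2.84 and 0.974 FPKM in the knockdown library. SOCS1, a feedback inhibitor of cytokine signalling with a mean below 1 FPKM, was at 0.447 and 1.07 FPKM. It had at least 14 and 37 reads, a ratio of 2.38 (1.26 to 4.77). CHFR, of the same list and also below 1 FPKM, went the other way, at 0.209 and 0.0684 FPKM. It had at least 22 and 8 reads, a ratio of 0.328 (0.126 to 0.764). SOCS1 and CHFR were named after their values were seen. DNA methylation itself was not measured in these libraries.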

How the data were processed

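RNA of RKO cells was harvested with Trizol and sequenced from standard Illumina libraries, per the labels' protocols. The authors deposited 1 table of FPKM values, with 1 column per library. Bowtie 0.12.2 and build hg19 are named in the submitters' processing notes, while the gene models, the counting program and the handling of strand were not given in the sources used here, so antisense reads cannot be told apart. The control column was matched by SiNC in its name and the other by Si and K, a less direct match.

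Ratios between the columns were fractions of whole reads, so reads and lengths were recovered as the smallest whole numbers that fit (relative tolerance 1e-12 for reads, 1e-05 bases for lengths), for 99.99% of 19069 genes above 0. The recovered lengths of DNMT1 and DNMT3B, 2700 and 2168 bases, are close to or at 50.0% of their longest GENCODE transcripts, 5408 and 4336 bases, so their true reads may be a multiple and their intervals narrower. Doubling their reads is a setting chosen with the values known. That of MBD2 equals its longest transcript, 5188 bases.

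Genes were counted by log2 of (FPKM + 1) ratios among those with a mean of at least 1 FPKM. Intervals of ratios are Clopper-Pearson, those of balances exact conditional odds ratio intervals, those of levels exact Poisson, all computed at 95% with SciPy 1.17.1, and they cover counting error only. Reads can be copies of 1 molecule, and genes with close pseudogene copies, such as KRT18 and PCNA, may share reads with them. Recovery and intervals were run on simulated Poisson reads, which hold no variation between libraries, no copies of 1 molecule and no shared reads. Other settings added 0.1 or 5 FPKM in place of 1, centred the ratios on the median gene, scaled by TMM factors or by equal totals with small RNAs left out, used no filter or a mean of at least 5 FPKM, used folds of 1.5 and 3, or also required the interval to exclude no change. Members, lists and rules were chosen with earlier results of these data known. Named genes are the 9 members, HNRNPK, a panel of 14 partner genes, up to 3 genes per list past 2-fold in each direction, markers of intestinal epithelium, and those said to be named after their values were seen. The tested genes of the list silenced in colorectal cancer and 3 pseudogenes of members were also named after their values were seen. MBD3 and PCNA are each in 2 lists. Some genes of the panel and lists are not reported here.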

Additional observations from a re-analysis of the deposited data

How the results depend on the processing

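With 1 library per group, no value has a replicate check and no library could be left out. For the same reason neither a paired nor an unpaired test was possible, and the labels give no replicate numbers. The members at least 2-fold higher, 0 at the deposited scaling, became 1 (MBD2) after centring, with TMM factors and at 1.5-fold, and the members at least 2-fold lower, also 0, became 1 (DNMT1) at 1.5-fold. All other settings tried left both counts at 0. The median log2 ratio of the members was −0.29 at a mean of at least 5 FPKM, where 4 members remain, and between −0.11 and 0.11 under the other settings, so its sign depends on the scaling. Over the 5 scaling and pseudocount settings the log2 ratio of DNMT1 ran from −0.74 to −0.46, that of UHRF1 from −0.65 to −0.38 and that of MBD2 from 0.78 to 1.09. TET3 ran from 0.01 to 0.23 and DNMT3B from −0.26 to −0.04, and DNMT3A, TET2 and UHRF2 took either sign. Over all tested genes the 89 higher and 407 lower became 142 and 241 once centred, 150 and 260 by TMM, and 68 and 535 by equal totals. With 0.1 FPKM added they were 162 and 754, and with 5 FPKM 24 and 85. With doubled reads for DNMT1 and DNMT3B, 4 rather than 5 tested members had an interval that includes 1. The 3 balances between members kept their direction with 1 FPKM added. Depth limits what could be seen for the low members, which rest on at least 155 reads (DNMT3B, hnRNPK siRNA) to 691 reads (TET3, hnRNPK siRNA).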
